A study of Mus musculus with 25 samples.

Results

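The peroxiredoxin and thioredoxin system was described in myocardial mRNA through 10 genes, namely the peroxiredoxins Prdx1, Prdx2, Prdx3, Prdx4, Prdx5 and Prdx6, the thioredoxins Txn1 and Txn2, and the thioredoxin reductases Txnrd1 and Txnrd2. The genes were chosen by symbol, and the abundance of each was the sum over all its transcripts in GENCODE mouse M21. They are 10 of the 35968 genes that had such a sum, and all 10 passed the filter on low values. The 25 hearts fell into 5 groups of 5 male mice. WT CNTL and GPx4+/- CNTL mice ate a normal chow diet, and WT HFHS and GPx4+/- HFHS mice ate a diet high in fat and sucrose with added cholesterol, each for 16 weeks from an age of 8 to 10 weeks. WT HFHS + Carnosine mice ate the same HFHS diet and received 80 mM carnosine, a dipeptide of histidine and beta-alanine, in the drinking water from week 7. GPx4+/- mice carry a disrupted copy of Gpx4, the gene for the glutathione peroxidase that reduces lipid hydroperoxides in membranes, and WT mice were their littermates from a line backcrossed to C57BL6/J. All mice were fasted and then injected with dextrose or saline shortly before the left ventricle was taken, and the labels do not say which mouse received which. GPx4+/- HFHS mice given carnosine were not analysed here.

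Peroxiredoxins reduce hydrogen peroxide and organic peroxides with a reactive cysteine, which is oxidised in the process. In most of the family that cysteine is returned to its reduced form by thioredoxin, thioredoxin is reduced by thioredoxin reductase, a selenoprotein, and the reductase takes its electrons from NADPH. Prdx1, Prdx2, Txn1 and Txnrd1 act in the cytosol, Prdx3, Txn2 and Txnrd2 in the mitochondria, Prdx5 in mitochondria, cytosol and peroxisomes, and Prdx4 in the endoplasmic reticulum and secretory pathway, while Prdx6 is the member with a single catalytic cysteine that uses glutathione. In the heart, whose cells are dense in mitochondria, the mitochondrial branch is known as a main route for removing hydrogen peroxide.

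Promoter sequences (250 bases before to 50 after an annotated start, RefSeq, GRCm38.p6) were at hand for 9 of the 10 genes, 11 windows in all because Txnrd1 has 3 starts. Windows of 3 genes are printed. Prdx4 is the gene whose mRNA fell on HFHS, the Txnrd1 window is that of the start that carried nearly all of its TPM, and Prdx1 is shown beside them because its window holds the core of the antioxidant response element, the site bound by the transcription factor Nrf2. Capitals mark the element, searched on both strands as TGACNNNGC and TGAGNNNGC, and no matches overlap in these windows.

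Prdx4, chrX:155338411-155338710, minus strand: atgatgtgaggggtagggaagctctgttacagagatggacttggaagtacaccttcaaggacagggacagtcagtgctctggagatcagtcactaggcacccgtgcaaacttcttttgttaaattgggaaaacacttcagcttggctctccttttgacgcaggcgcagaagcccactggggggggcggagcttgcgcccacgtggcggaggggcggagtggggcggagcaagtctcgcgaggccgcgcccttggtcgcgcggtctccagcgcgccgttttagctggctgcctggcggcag

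Txnrd1, chr10:82858956-82859255, plus strand: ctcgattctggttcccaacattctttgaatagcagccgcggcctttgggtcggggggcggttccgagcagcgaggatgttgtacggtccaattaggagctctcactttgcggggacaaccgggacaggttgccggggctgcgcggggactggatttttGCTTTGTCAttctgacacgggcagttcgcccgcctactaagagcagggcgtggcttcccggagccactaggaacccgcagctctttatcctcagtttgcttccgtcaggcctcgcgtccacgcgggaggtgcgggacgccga

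Prdx1, chr4:116685349-116685648, plus strand: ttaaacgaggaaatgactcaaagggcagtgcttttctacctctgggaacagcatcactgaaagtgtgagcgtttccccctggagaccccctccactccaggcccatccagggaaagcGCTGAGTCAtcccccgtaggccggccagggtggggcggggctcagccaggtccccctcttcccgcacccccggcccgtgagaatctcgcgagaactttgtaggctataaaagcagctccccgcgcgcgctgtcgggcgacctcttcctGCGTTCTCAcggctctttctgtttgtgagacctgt

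TGACNNNGC occurred in 2 of the 11 windows, against 12.4% of all 32851 promoters of this length, once in Prdx1 (first base at -133 from the start) and once in the Txnrd1 window shown (first base at -92), both on the opposite strand. TGAGNNNGC occurred in 2 of the 11 windows, against 17.6% of all promoters, at +16 in Prdx1 and at -187 in Txn2. No match of either form lay in the Prdx4 window, which says only that these letters are not in this stretch.

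The values are TPM, a share of each library's transcripts corrected for length and rescaled to a total of 1000000, and here they were divided by a median-ratio factor per library (0.864 to 1.16) to give scaled TPM. Mitochondrially encoded transcripts took between 31.3% and 48.7% of a library's TPM, and between 11651 and 12304 genes had at least 1 TPM. TPM keeps no read depth, so no counting error can be given. Gpx4 checked the genotype labels, since it was lower in every GPx4+/- mouse than in every WT mouse on both diets. Its scaled TPM was 670.4 ± 47.2 on CNTL and 712 ± 67.4 on HFHS in WT mice, and 306 ± 43.2 on CNTL and 352 ± 22.0 on HFHS in GPx4+/- mice (SD, n = 5 each). Cardiomyocyte markers were high in all libraries (summed scaled TPM of 6 genes from 20900 to 27193). In 6 mice (WT CNTL 3, WT HFHS 4, GPx4+/- HFHS 4, mice 1 and 2 of GPx4+/- CNTL, and mouse 2 of the carnosine group) the summed markers of atrium, liver or smooth muscle stood above those of all the remaining mice, and the differences that passed are given with and without these 6. The liver sum was 1042 in GPx4+/- CNTL 2, but also 70.2 in GPx4+/- HFHS 1 and 38.8 in GPx4+/- HFHS 3, where no other mouse exceeded 8.28, and the smooth muscle sum was 521 in WT HFHS 4 and 245 in GPx4+/- HFHS 5. These 3 further mice were kept, and each was left out only singly, after which Prdx4 still passed for diet over both genotypes (adjusted p from limma 0.0221 to 0.0256).

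Prdx2 and Prdx5 had the highest summed levels of the system, and the place of Prdx2 and Prdx6 depended on non-coding transcripts. Over all 25 mice the scaled TPM was 324 ± 18.6 (SD, n = 25) for Prdx2 and 321 ± 24.1 (SD, n = 25) for Prdx5, and Prdx2 exceeded Prdx5 in only 16 mice, so the order of this pair lay within their spread. Prdx1 followed at 222 ± 17.7 (SD, n = 25), and Prdx5 exceeded it in 25 of 25 mice. Prdx3 (210.3 ± 12.9), Prdx6 (201.5 ± 16.9) and Txn2 (201.3 ± 11.0; all SD, n = 25) lay close together, with Prdx6 above Txn2 in 13 mice. The cytosolic pair was lower, at 46.3 ± 2.82 (SD, n = 25) for Txn1 and 24.9 ± 2.46 (SD, n = 25) for Txnrd1. Txnrd2 at 14.0 ± 1.27 (SD, n = 25) and Prdx4 at 12.9 ± 1.80 (SD, n = 25) closed the list. Mitochondrial thioredoxin Txn2 was therefore above cytosolic Txn1 in all 25 mice, while the mitochondrial reductase Txnrd2 was below the cytosolic Txnrd1 in all 25. From transcripts annotated as protein coding alone, the scaled TPM of Prdx2 was 211 ± 11.5 (SD, n = 25), level with Prdx3 (Prdx2 above in 13 of 25 mice) and below Prdx1 in 17 mice. That of Prdx6 was 52.5 ± 4.59 (SD, n = 25), below Txn2 in all 25 mice and next to Txn1, so on this count Prdx5 alone led the system.

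**Figure D1:**
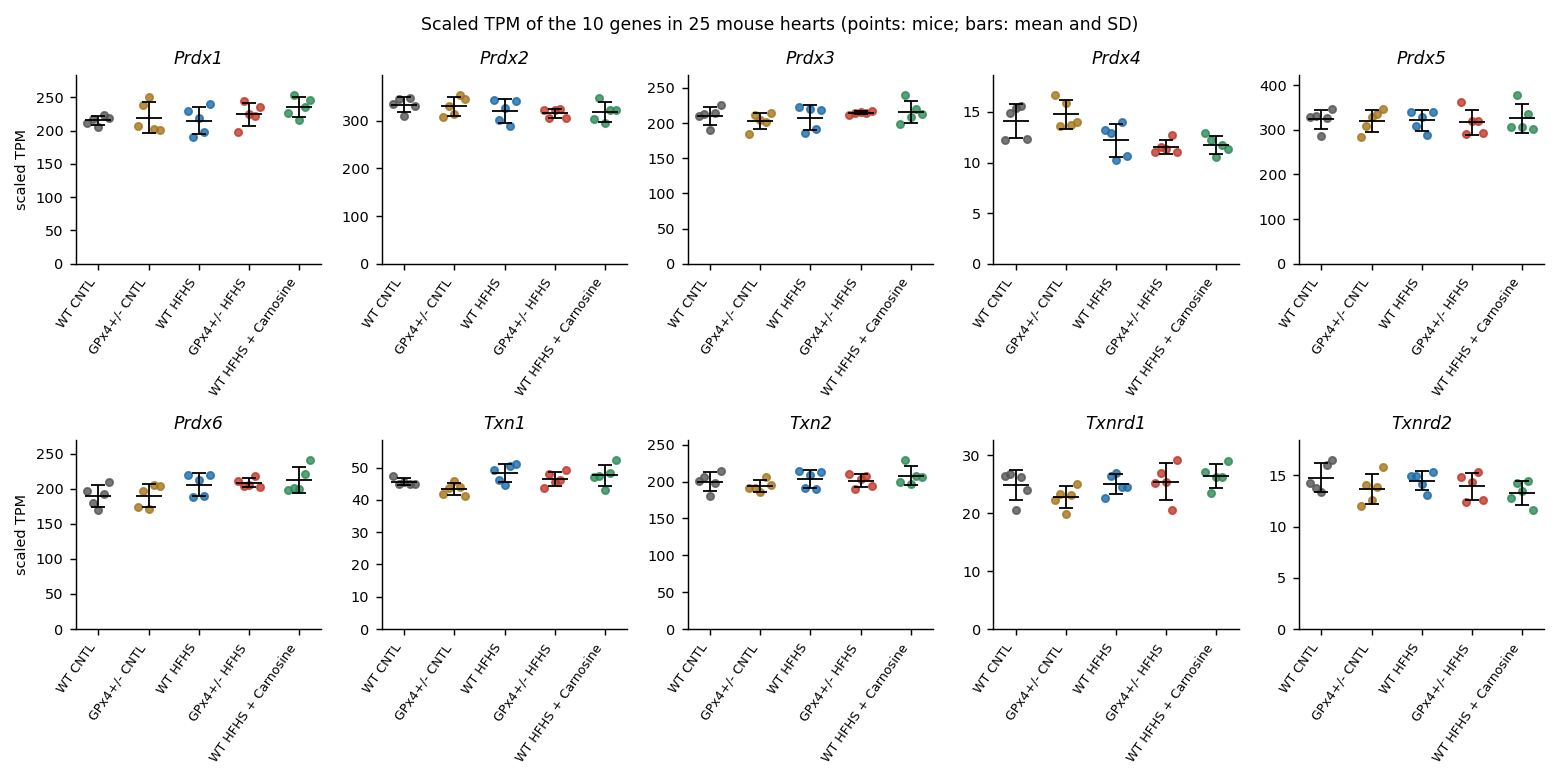
Scaled TPM (vertical axes, each from 0) of the 10 genes by group (horizontal axes), with a point for each mouse and the mean and SD of 5 mice as bars. Prdx4 lies between 13.6 and 16.7 in GPx4+/- CNTL and between 11.0 and 12.7 in GPx4+/- HFHS, while the groups of the other 9 genes overlap in every comparison.

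The within-group SD on the log2 scale ran from 0.072 for Txn1 to 0.141 for Prdx4, against a median of 0.145 over all 11983 genes tested. Beside genes of similar level, Prdx5 (percentile 64.6), Txnrd1 (64.0), Prdx4 and Prdx1 (both 56.4) and Prdx6 (53.0) were above the middle and the other 5 genes below it. Group means spanned from 0.036 on the log2 scale for Prdx5 to 0.339 for Prdx4, and the spans of Prdx4 and Txnrd1 (0.213) exceeded the median of 0.182 over all genes tested.

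The first question was whether the HFHS diet altered the system. Prdx4 mRNA fell on HFHS and no other gene of the 10 passed the test. A gene was called when its limma p, adjusted over all genes tested, was under 0.05. In WT mice the test called 0 of the 10 genes (1.19% of all genes tested were called), with 1 at an unadjusted p under 0.05 (16.5% of all genes). In GPx4+/- mice it called 1 of 10 (3.34% of all genes, 1.16% in the lower direction) and over both genotypes it called 1 of 10 (8.32% of all genes, 3.65% lower). The median difference of the 10 genes over both genotypes was 0.023 on the log2 scale, beside -0.0024 for all genes.

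**Figure D2:**
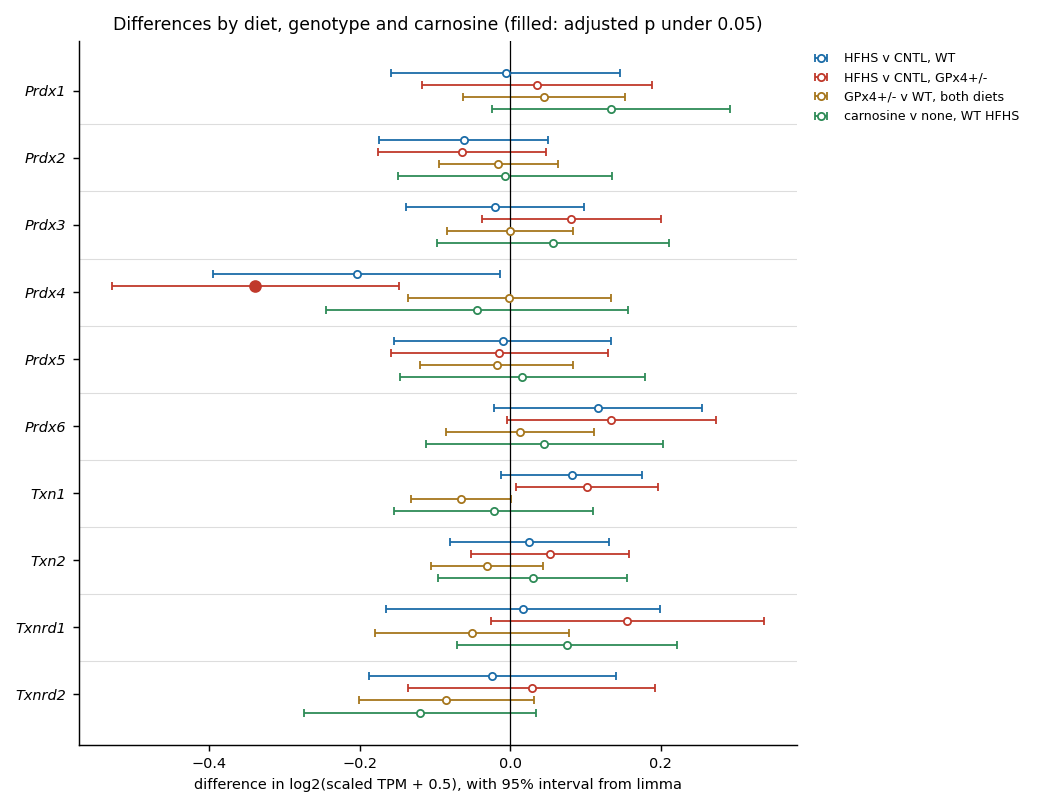
Differences in log2(scaled TPM + 0.5) with 95% intervals from limma (horizontal axis) for the 10 genes (vertical axis) by diet within each genotype, by genotype over both diets and by carnosine within WT HFHS. The filled point is Prdx4 on HFHS in GPx4+/- mice (-0.34), and the intervals of Prdx4 in both genotypes lie below 0.

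Prdx4 (ENSMUSG00000025289.15, chromosome X from 155323918 to 155340754, minus strand of GRCm38) encodes the peroxiredoxin of the endoplasmic reticulum, which passes oxidising equivalents to proteins being folded there. Its scaled TPM was 12.3, 14.9, 15.4, 15.6 and 12.3 in the WT CNTL mice (replicates 1 to 5) and 16.7, 13.6, 15.9, 13.7 and 14.0 in the GPx4+/- CNTL mice. On HFHS it was 13.2, 12.9, 10.2, 14.0 and 10.7 in the WT mice and 11.1, 11.6, 11.4, 12.7 and 11.0 in the GPx4+/- mice. Every GPx4+/- HFHS mouse was below every GPx4+/- CNTL mouse, whereas the WT groups overlapped in 3 HFHS mice. Prdx4 was the only gene of the 10 whose groups did not overlap in GPx4+/- mice, where 4.47% of all genes did not overlap, and in WT mice 0 of the 10 were without overlap, against 4.51% of all genes.

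In GPx4+/- mice Prdx4 fell by 21.8%, from 14.8 ± 1.42 (SD, n = 5) to 11.5 ± 0.679 (SD, n = 5). The log2 difference was -0.34 (SE 0.091, 95% interval -0.53 to -0.15, adjusted p = 0.0468 from limma), and the two-sided exact permutation test gave p = 0.00794, the smallest that 5 mice against 5 allow. Among the 60 exact tests made on the 10 genes, 6 had an unadjusted p under 0.05. In WT mice the means were 14.1 ± 1.70 (SD, n = 5) on CNTL and 12.2 ± 1.65 (SD, n = 5) on HFHS, a log2 difference of -0.20 (SE 0.091, 95% interval -0.39 to -0.013) that did not pass (adjusted p = 0.271 from limma). Over both genotypes Prdx4 was lower by a log2 difference of -0.27 (SE 0.065, 95% interval -0.41 to -0.14, adjusted p = 0.0131 from limma). The diet difference in GPx4+/- mice minus that in WT mice was -0.14 (SE 0.129, 95% interval -0.40 to 0.13, adjusted p = 0.833), so the size of the diet difference could not be separated between genotypes.

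The Prdx4 call over both genotypes stood in each of the 14 other ways of processing (adjusted p 0.00726 to 0.0315) and without each of the 20 mice (0.00908 to 0.0270). The call within GPx4+/- mice was close to the threshold and was lost in 6 of those 14 ways and without each of 12 mice, which were WT CNTL 2 and 4, GPx4+/- CNTL 1, 3, 4 and 5, WT HFHS 1 and 2, and GPx4+/- HFHS 1, 2, 3 and 5 (adjusted p from limma 0.0508 to 0.125 in these), with a log2 difference between -0.37 and -0.29 over all single omissions. Without the 6 mice with markers of other tissue the log2 difference was -0.29 over both genotypes (adjusted p = 0.0269 from limma) and -0.35 in GPx4+/- mice (adjusted p = 0.0856). Cell type markers also moved with diet. All 5 fibroblast markers were above 0 on HFHS over both genotypes, of which Lum (0.55) and Pdgfra (0.29) passed the test, and their summed scaled TPM ran from 243 to 466 in WT CNTL, 252.1 to 380.5 in GPx4+/- CNTL, 299.6 to 524 in WT HFHS, 279 to 451 in GPx4+/- HFHS, and 275 to 419 with carnosine. Of 6 cardiomyocyte markers 5 were below 0, and 1, Myh6 (-0.17), passed. The 5 atrial markers were all below 0 with a median of -0.94 and 0 of them passed, their summed scaled TPM running from 127 to 4566 in WT CNTL, 130.4 to 7347 in GPx4+/- CNTL, 30.6 to 276 in WT HFHS, 46.8 to 2695 in GPx4+/- HFHS, and 91.9 to 580.2 with carnosine. All 4 smooth muscle markers (median 0.57 over both genotypes, 0.88 in WT mice, 0.27 in GPx4+/- mice) and all 5 macrophage markers (median 0.12) and 5 endothelial markers (median 0.083) were also above 0, and 0 of them passed in limma, with 3, 1 and 1 at an unadjusted p under 0.05. The summed smooth muscle level ran from 65.8 to 133.6 in WT CNTL, 91.7 to 142 in GPx4+/- CNTL, 99.6 to 521 in WT HFHS and 72.5 to 245 in GPx4+/- HFHS. Of 5 adipocyte markers 1 was expressed highly enough to be tested and it did not pass (-0.42, adjusted p = 0.706 from limma), and the summed level of the 5 ran from 0.077 to 15.0 in WT CNTL, 0.14 to 9.31 in GPx4+/- CNTL, 0.17 to 5.14 in WT HFHS and 0.054 to 10.4 in GPx4+/- HFHS. No marker of these lists was at 0 in all mice. Within groups Prdx4 correlated with the fibroblast sum (Pearson's r = 0.63, Spearman's rho = 0.59), with the adipocyte sum (r = 0.54, rho = 0.50), with the atrial sum (r = 0.52, rho = 0.55), with the macrophage sum (r = 0.41, rho = 0.37) and with the smooth muscle sum (r = 0.20, rho = 0.18) over 25 mice, which is a description of libraries that share their scaling. The part of these cell types in the Prdx4 difference was not tested, and in bulk tissue fewer cells of a type and less RNA per cell cannot be told apart.

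Among the cytosolic peroxiredoxins, Prdx1 (chromosome 4 from 116685544 to 116700822) averaged 215 ± 7.17 (SD, n = 5) on CNTL and 215 ± 20.8 on HFHS in WT mice, and 219.5 ± 22.8 on CNTL and 225 ± 17.2 on HFHS in GPx4+/- mice. Its diet difference over both genotypes was 0.015 on the log2 scale, with a 95% interval from -0.093 to 0.12. Prdx2 (chromosome 8 from 84969587 to 84974834), a peroxiredoxin abundant in red cells, averaged 334 ± 15.4 (SD, n = 5) on CNTL and 320.4 ± 24.7 on HFHS in WT mice, and 331 ± 20.1 on CNTL and 316 ± 9.44 on HFHS in GPx4+/- mice. The difference of -0.063 over both genotypes (95% interval -0.14 to 0.016, adjusted p = 0.325 from limma) did not pass. With the mitochondrially encoded transcripts taken out and no median-ratio scaling, it was -0.095 and passed (adjusted p = 0.0361, against 0.325 here). None of 5 erythroid markers passed for diet, and their summed scaled TPM ran from 2274 to 7568 over the 20 mice without carnosine.

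Neither mitochondrial peroxiredoxin passed for diet. Prdx3 (chromosome 19 from 60864051 to 60874556), which handles most hydrogen peroxide of the matrix, ranged from 190.1 to 225 in WT CNTL, 185 to 214 in GPx4+/- CNTL, 185 to 223 in WT HFHS and 211 to 216 in GPx4+/- HFHS. Its diet difference over both genotypes was 0.030 (95% interval -0.053 to 0.11). In GPx4+/- mice alone, 4 of 5 HFHS mice were above the highest CNTL mouse, with a log2 difference of 0.081 (adjusted p = 0.488 from limma, two-sided exact permutation p = 0.0238). This direction depended on the scaling, since with TPM as deposited the difference was -0.026 in GPx4+/- mice and -0.022 over both genotypes. The 4 group means of Prdx5 (chromosome 19 from 6906697 to 6910106) lay between 317 and 323, and its diet difference was -0.012 (95% interval -0.11 to 0.090).

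Prdx6 (chromosome 1 from 161240112 to 161251219), which also has phospholipase activity and reduces phospholipid hydroperoxides, lay higher in the HFHS means without passing the test. Its scaled TPM was 197, 179.6, 170.0, 193 and 209.7 in WT CNTL mice and 219, 188, 213, 189 and 220.0 in WT HFHS mice. The GPx4+/- mice had 173, 197, 172, 206 and 205 on CNTL and 212, 204, 206, 218 and 203 on HFHS. The groups overlapped in both genotypes. Over both genotypes the log2 difference was 0.13 (SE 0.047, 95% interval 0.028 to 0.22, adjusted p = 0.102 from limma). With TPM as deposited it was 0.073 over both genotypes (adjusted p = 0.399 from limma), and 0.027 in place of 0.13 in GPx4+/- mice.

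Of the thioredoxins, Txn1 (chromosome 4 from 57943373 to 57956411), the cytosolic electron donor, had a scaled TPM of 47.5, 45.1, 45.4, 45.1 and 45.0 in WT CNTL mice and of 49.3, 46.3, 44.6, 50.5 and 51.1 in WT HFHS mice. In GPx4+/- mice it was 41.7, 43.6, 45.8, 44.0 and 41.3 on CNTL and 43.7, 47.9, 45.4, 46.1 and 49.3 on HFHS. The groups overlapped, the log2 difference over both genotypes was 0.092 (SE 0.032, 95% interval 0.025 to 0.16), and it did not pass (adjusted p = 0.0792 from limma). In GPx4+/- mice alone it was 0.10 (adjusted p = 0.227 from limma, two-sided exact permutation p = 0.0476). Without WT HFHS 3 alone the difference was 0.11 and passed (adjusted p = 0.0440, in a range of 0.0440 to 0.141 over the single omissions). With TPM as deposited it was 0.040 over both genotypes (adjusted p = 0.653 from limma) and -0.0044 in GPx4+/- mice. Txn2 (chromosome 15 from 77915047 to 77929006), the mitochondrial donor, averaged 194 ± 7.75 (SD, n = 5) in the GPx4+/- mice on CNTL and 201 ± 8.73 on HFHS, and 200.04 ± 12.5 on CNTL and 204 ± 12.0 on HFHS in WT mice, a diet difference over both genotypes of 0.039 (95% interval -0.035 to 0.11). With TPM as deposited the Txn2 difference was -0.014 over both genotypes and -0.055 in GPx4+/- mice.

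The reductases varied more between mice than the thioredoxins did (within-group SD of 0.137 for Txnrd1 and 0.126 for Txnrd2 on the log2 scale, 0.078 for Txn2). Txnrd1 (chromosome 10 from 82833951 to 82897712), the cytosolic selenoprotein, averaged 24.8 ± 2.60 (SD, n = 5) in WT CNTL and 25.0 ± 1.73 in WT HFHS, and 22.7 ± 1.92 in GPx4+/- CNTL and 25.5 ± 3.14 in GPx4+/- HFHS. The diet difference was 0.017 in WT mice (95% interval -0.16 to 0.20) and 0.16 in GPx4+/- mice (95% interval -0.026 to 0.34, adjusted p = 0.361 from limma), and the difference between the genotypes was 0.14 with a 95% interval from -0.12 to 0.40. Over the 14 other ways of processing the Txnrd1 diet difference ran from 0.050 (TPM as deposited) to 0.23 (without the 6 mice) in GPx4+/- mice, and from -0.041 to 0.019 in WT mice, below 0 in 3 of the 14. Txnrd2 (chromosome 16 from 18426384 to 18479073), the mitochondrial reductase, averaged 14.8 ± 1.39 (SD, n = 5) on CNTL and 14.5 ± 0.886 on HFHS in WT mice, and 13.6 ± 1.46 on CNTL and 13.9 ± 1.30 on HFHS in GPx4+/- mice. Its diet difference over both genotypes was 0.0022 with a 95% interval from -0.11 to 0.12, and it was below 0 in 5 of the 14 other ways (down to -0.049). With TPM as deposited, where the median of all genes in GPx4+/- mice was -0.10, Prdx1 was at -0.038, Prdx2 at -0.12 and Prdx5 at -0.065 over both genotypes, so the directions and sizes of the differences that did not pass depended on the scaling. Prdx4 was at -0.32 in that setting and passed (adjusted p = 0.0243 from limma). In the genotype and carnosine comparisons, too, the direction of several members with differences near 0 changed with the processing.

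The second question was whether loss of a Gpx4 allele was accompanied by a change in this second peroxide-reducing system. The test called 0 of the 10 genes between genotypes on CNTL (0.0501% of all genes tested were called), 0 on HFHS (0.0501% of all genes) and 0 over both diets (0.0584% of all genes). At an unadjusted limma p under 0.05 there were likewise 0 of the 10 in each of these comparisons, against 6.28%, 4.57% and 3.9% of all genes. The groups of all 10 overlapped on both diets, where 0.926% of all genes on CNTL and 0.726% on HFHS did not overlap. Over both diets the largest difference was that of Txnrd2, at -0.085 on the log2 scale (95% interval -0.20 to 0.031), and the smallest p was that of Txn1, whose difference was -0.065 (95% interval -0.13 to 0.0013, unadjusted p = 0.0542 and adjusted p = 1.00 from limma). On CNTL, 4 of 5 GPx4+/- mice had less Txn1 than the lowest WT mouse (43.3 ± 1.83 against 45.6 ± 1.08, SD of 5 mice in both groups, exact permutation test with p = 0.0397, two-sided). Prdx4, the gene that fell on HFHS, differed by -0.0011 between genotypes (95% interval -0.14 to 0.13). The diet differences of the 10 genes did not pass a test of their difference between genotypes either, with 0 of 10 called (0% of all genes tested) and 0 at an unadjusted p under 0.05 (7.14% of all genes).

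The third question was whether carnosine altered the system in WT HFHS mice. The limma test on these 10 mice called 0 of the 10 genes (0% of all genes tested), and 0 of them had an unadjusted p under 0.05, while 505 of all genes did (4.21%). The groups of all 10 overlapped, against 0.609% of all genes without overlap. Prdx4 was 12.9, 12.2, 10.6, 11.7 and 11.4 in the WT HFHS + Carnosine mice, with a mean of 11.8 ± 0.871 (SD, n = 5). These values lie within the range of the WT HFHS mice, and the log2 difference was -0.044 (95% interval -0.24 to 0.16). Prdx1 had the largest difference, at 0.13 (95% interval -0.024 to 0.29, adjusted p = 0.947 from limma), with 235 ± 15.0 (SD, n = 5) on carnosine against 215 ± 20.8 without. Txnrd2 differed by -0.12 (95% interval -0.27 to 0.034), with 13.3 ± 1.16 (SD, n = 5) against 14.5 ± 0.886. The intervals of the other 7 genes all included 0 and reached at most 0.22 in either direction.

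Set against WT CNTL, which is also the control of the WT diet comparison, the HFHS mice with carnosine gave 0 calls among the 10 genes (1.18% of all genes tested), with 2 of the 10 at an unadjusted p under 0.05 (13.6% of all genes) and 0 of the 10 without overlap (3.26% of all genes). Prdx4 differed by -0.25 (SE 0.087, 95% interval -0.43 to -0.067, adjusted p = 0.176 from limma, two-sided exact permutation p = 0.0397). Of the carnosine mice, 4 of 5 lay below the lowest WT CNTL mouse at 12.253, but mouse 2 at 12.249 was practically level with it. Prdx6 differed by 0.16 (SE 0.068, 95% interval 0.021 to 0.30, adjusted p = 0.280). Prdx1 differed by 0.13 (95% interval -0.018 to 0.27), with 4 of 5 carnosine mice above the highest WT CNTL mouse at 224 (two-sided exact permutation p = 0.0317).

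Among the genes that supply NADPH, Me1 rose and Nnt fell on HFHS in scaled TPM. Me1, the cytosolic malic enzyme that makes NADPH, averaged 68.8 ± 3.88 (SD, n = 5) on CNTL and 89.5 ± 9.50 on HFHS in WT mice, and 68.5 ± 7.08 on CNTL and 87.8 ± 4.43 on HFHS in GPx4+/- mice, with 89.1 ± 5.17 under HFHS and carnosine. Every HFHS mouse was above every CNTL mouse of its genotype, where 4.51% of all genes in WT mice and 4.47% in GPx4+/- mice did not overlap. The Me1 log2 difference over both genotypes was 0.37 (SE 0.051, adjusted p = 0.000234 from limma). Me1 was the 1 of 7 NADPH genes called in WT mice (1.19% of all genes) and the 1 of 7 called in GPx4+/- mice (3.34%). Over both genotypes 2 of 7 were called (8.32% of all genes), Me1 and, in the lower direction, Nnt, the mitochondrial transhydrogenase that makes NADPH from NADH (log2 difference -0.23, SE 0.049, adjusted p = 0.00788). Nnt averaged 205 ± 17.0 (SD, n = 5) on CNTL and 170.3 ± 12.8 on HFHS in WT mice, and 197 ± 19.7 on CNTL and 173 ± 8.52 on HFHS in GPx4+/- mice. The strain C57BL6/J is known to carry a deletion within Nnt, and 2 gene IDs of that symbol were summed. The median difference of the 7 genes was 0.11, beside -0.0024 for all genes.

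**Figure D3:**
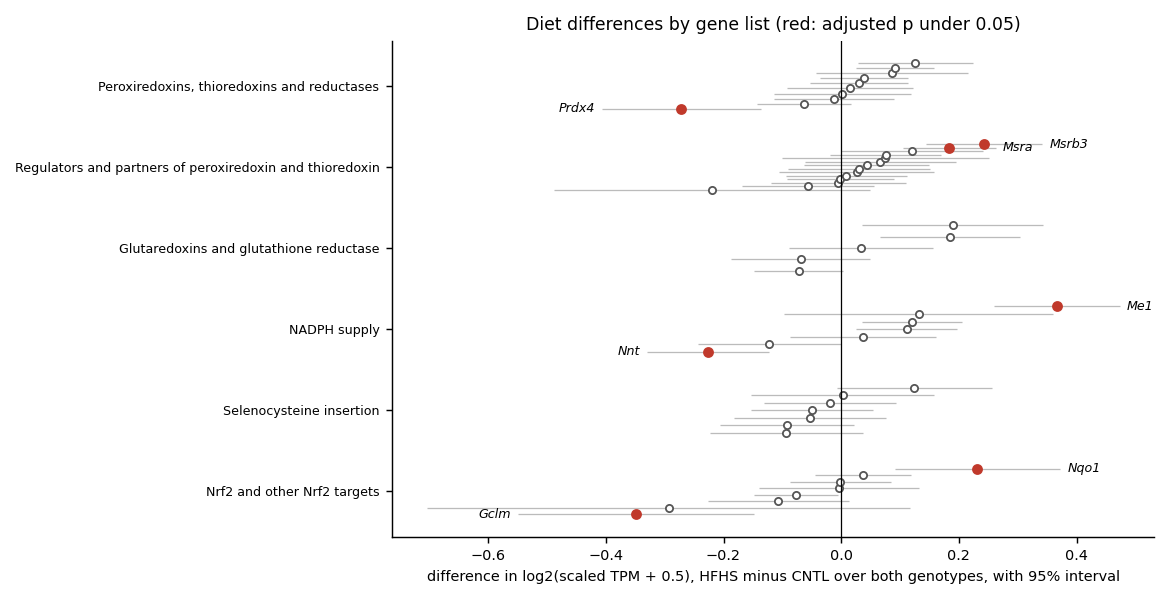
Differences in log2(scaled TPM + 0.5) between HFHS and CNTL over both genotypes (horizontal axis, with 95% intervals from limma) for every tested gene of 6 lists (vertical axis). Red points passed at an adjusted p under 0.05; they are Prdx4 (-0.27), Msrb3 (0.24), Msra (0.18), Me1 (0.37), Nnt (-0.23), Nqo1 (0.23) and Gclm (-0.35).

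Among 14 regulators and partners, 0 were called for diet in WT mice (1.19% of all genes). The methionine sulfoxide reductases Msra and Msrb3, which take their electrons from thioredoxin, were the 2 called in GPx4+/- mice (3.34% of all genes) and over both genotypes (8.32%). Msra averaged 33.4 ± 2.46 (SD, n = 5) in GPx4+/- CNTL and 40.6 ± 2.70 in GPx4+/- HFHS (log2 difference 0.28, SE 0.053, adjusted p = 0.00665 from limma). Its groups did not overlap, which held for 4.47% of all genes. Msrb3 averaged 35.7 ± 1.69 (SD, n = 5) and 44.2 ± 3.74 in the same groups, again without overlap, beside that same 4.47% (log2 difference 0.30, SE 0.066, adjusted p = 0.0164). In WT mice Msra averaged 37.6 ± 1.10 on CNTL and 40.0 ± 1.68 on HFHS, and Msrb3 averaged 38.4 ± 2.55 and 43.8 ± 4.09 (SD, n = 5 each). The test of the diet difference between genotypes did not pass for Msra (0.19, 95% interval 0.033 to 0.35, adjusted p = 0.681) or Msrb3 (0.12, 95% interval -0.080 to 0.31, adjusted p = 0.793). On CNTL every GPx4+/- mouse had less Msra than every WT mouse, where 0.926% of all genes did not overlap in either direction. The limma test did not call it (log2 difference -0.17, adjusted p = 0.702). Msra was named for its diet call in GPx4+/- mice, which uses the same GPx4+/- CNTL values, so this genotype difference is a description only. Srxn1, the sulfiredoxin that repairs overoxidised peroxiredoxins, averaged 12.6 ± 1.45 (SD, n = 5) on CNTL and 13.2 ± 0.593 on HFHS in WT mice, and 10.8 ± 1.32 on CNTL and 12.2 ± 0.922 on HFHS in GPx4+/- mice. Its genotype difference over both diets was -0.17 (95% interval -0.29 to -0.047, unadjusted p = 0.00888 and adjusted p = 1.00 from limma). Txnip, which binds and inhibits thioredoxin and responds to glucose, ranged from 330.3 to 424 in WT CNTL, from 279 to 384 in WT HFHS, from 205 to 432 in GPx4+/- CNTL and from 225 to 434 in GPx4+/- HFHS, and its diet difference was -0.22 (95% interval -0.49 to 0.049). The injection of dextrose or saline before the tissue was taken cannot be assigned to single mice, and its part in the Txnip values was not tested.

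Of 5 glutaredoxins and glutathione reductase 0 passed for diet, beside 1.19% of all genes in WT mice, 3.34% in GPx4+/- mice and 8.32% over both genotypes. Gsr, the glutathione reductase, averaged 8.58 ± 0.667 (SD, n = 5) on CNTL and 10.2 ± 0.618 on HFHS in WT mice, and 8.59 ± 0.971 on CNTL and 9.48 ± 1.07 on HFHS in GPx4+/- mice, a log2 difference of 0.18 over both genotypes (SE 0.057, adjusted p = 0.0508 from limma). All 7 genes of selenocysteine insertion, on which the reductases and Gpx4 depend, were tested and 0 passed for diet, beside the same shares of all genes. Their median was -0.049 over both genotypes. Of 9 genes for Nrf2, its inhibitor and its other targets, 8 were tested. Of these, 0 were called in WT mice (1.19% of all genes), 1 in GPx4+/- mice (Nqo1, beside 3.34%) and 2 over both genotypes (Nqo1 higher, Gclm lower, beside 8.32%). Nqo1, a quinone reductase, averaged 44.2 ± 4.19 (SD, n = 5) on CNTL and 44.8 ± 4.10 on HFHS in WT mice, and 34.6 ± 4.82 on CNTL and 47.1 ± 5.40 on HFHS in GPx4+/- mice. Each GPx4+/- CNTL mouse was below each WT CNTL mouse, where 0.926% of all genes did not overlap in either direction. The limma test did not call this Nqo1 difference (log2 difference -0.36, adjusted p = 0.589). Nqo1 was named for its diet calls, which use the same GPx4+/- CNTL values. The Nqo1 diet difference was 0.44 in GPx4+/- mice (SE 0.095, adjusted p = 0.0139) and 0.019 in WT mice, and the test of their difference did not pass (0.42, SE 0.134, adjusted p = 0.664). Gclm, a subunit of the enzyme that starts glutathione synthesis, averaged 25.3 ± 4.09 (SD, n = 5) in WT CNTL and 19.2 ± 1.88 in WT HFHS, and 24.3 ± 5.25 and 19.3 ± 3.06 in the GPx4+/- groups (log2 difference over both genotypes -0.35, SE 0.096, adjusted p = 0.0283). Between genotypes (0.0501% of all genes on each diet, 0.0584% over both) and with carnosine within WT HFHS (0%), 0 genes of these 5 lists were called. Against WT CNTL (1.18% of all genes) the carnosine mice differed in Me1 alone (0.37, adjusted p = 0.00935 from limma). Without the 6 mice named above, the difference over both genotypes was 0.38 for Me1 (adjusted p = 0.00376 from limma), -0.26 for Nnt (0.00618), 0.21 for Msra (0.00703), 0.21 for Msrb3 (0.0229), 0.27 for Nqo1 (0.0217) and -0.21 for Gclm, which no longer passed (0.206). Within GPx4+/- mice Me1, Msra, Msrb3 and Nqo1 still passed without them, whereas Me1 missed the threshold within WT mice (0.38, adjusted p = 0.0510) and with carnosine against WT CNTL (0.35, adjusted p = 0.0710). For these listed genes the other ways of processing are not reported, so how far their calls depend on the scaling is not shown.

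Mice with more of one mitochondrial member had more of the others. After removal of group means, Prdx3, Prdx5 and Txn2 correlated with each other over 25 mice (Pearson's r from 0.72 to 0.83), and Txnrd2 with them (0.52 to 0.73). This closeness was not particular to the system. With all genes tested ranked by r, the gene in place 100 had 0.742 for Prdx3, 0.805 for Prdx5, 0.782 for Txn2 and 0.730 for Txnrd2. Of the pairs among these members, only Prdx5 with Txn2 (0.83) was above these marks. Prdx2, a cytosolic protein, went with Txn2 (0.86), Prdx5 (0.80) and Prdx3 (0.78). Prdx1 went with Prdx3 (0.61) and Txn1 (0.56). Txnrd1 was close to 0 against every mitochondrial member (-0.14 to 0.020). Prdx4 stood opposite, at -0.58 with Prdx6 and -0.47 with Prdx3. The genes whose within-group pattern was most like that of Prdx4 were Igfbp3 (r = 0.81), Faap20 (0.78) and Rpn2 (0.74), where the gene in place 100 had 0.61 and the median gene -0.0069. The sum of the listed skeletal muscle markers (Ckm, Acta1, Myh4, Tnnt3 and Mylpf) was the feature with the within-group r farthest from 0 for 3 members. These were Txnrd2 (r = 0.66, rho = 0.61), Prdx1 (r = -0.60, rho = -0.52) and Txn1 (r = -0.49, rho = -0.49). Prdx1 also followed the mitochondrially encoded percent (r = 0.54, rho = 0.48). That sum of 5 markers ran from 1932 to 3062 over the 20 mice without carnosine. It was high in every heart and is not read here as skeletal muscle tissue. Of its 3 markers tested for diet over both genotypes 0 passed in limma and 2 had an unadjusted p under 0.05, in opposite directions. Several members also followed the summed cardiomyocyte markers (within-group r = 0.70 for Prdx5, 0.68 for Txn2, 0.58 for Prdx2, 0.46 for Txnrd2 and 0.44 for Prdx3), while Txnrd1 ran against them (-0.50). For Txnrd1 the values farthest from 0 were those with the adipocyte sum (r = -0.70, rho = -0.62), the atrial sum (r = -0.63, rho = -0.47) and the endothelial sum (r = 0.61, rho = 0.56). Against the summed fibroblast markers r was -0.71 for Prdx6, -0.57 for Txnrd1, -0.51 for Prdx2 and from -0.47 to -0.36 for Prdx3, Prdx5, Txn2 and Txnrd2, and against the summed macrophage markers it was -0.62 for Prdx6, -0.58 for Prdx3, -0.54 for Prdx5 and -0.51 for Prdx2. The part of cell composition in these correlations was not tested. They describe libraries that share a scaling step, and no test was made of them.

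**Figure D4:**
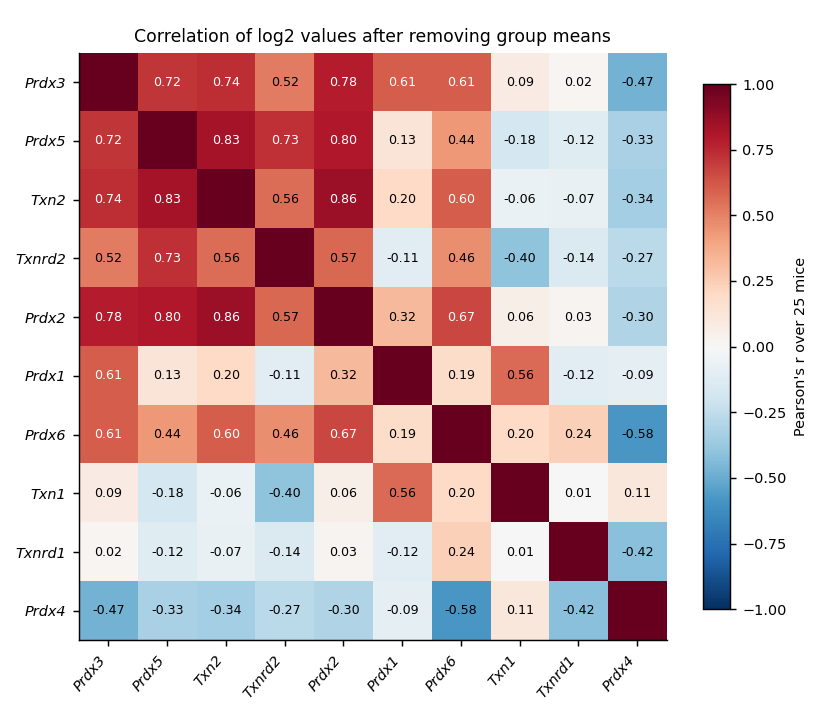
Pearson's r between the 10 genes over 25 mice, from log2(scaled TPM + 0.5) with each group's mean removed (both axes list the genes; colour runs from -1 to 1). Prdx3, Prdx5, Txn2, Txnrd2 and Prdx2 form a block with r from 0.52 to 0.86, and the row of Prdx4 is mostly negative.

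At the transcript level the sums came from different mixtures. Txnrd1 has 3 annotated starts with a promoter window, and the transcripts of the middle one, shown above, held 96.6% of its TPM (88.6% to 99.8% over the mice), those of the downstream start 1.92% and those of the upstream start 0.792%. That share was 97.6% ± 2.05 (SD, n = 5) on CNTL and 95.3% ± 3.02 on HFHS in WT mice, 97.2% ± 2.68 on CNTL and 95.7% ± 4.57 on HFHS in GPx4+/- mice, and 96.9% ± 1.39 under HFHS and carnosine, so the groups overlapped. Transcripts annotated as protein coding held 26.0% of the Prdx6 TPM (23.5% to 29.0%) and 65.0% of the Prdx2 TPM (60.9% to 68.8%), and from 98.7% to 100% of that of the other 8 genes. The main non-coding contributors were a Prdx6 transcript annotated for nonsense-mediated decay (Prdx6-208, 40.5% of its TPM) and a Prdx2 transcript with a retained intron (Prdx2-205, 34.7%). How reads were shared between overlapping transcripts is an estimate, so these shares are less certain than the sums. Prdx3 and Txn1 have 1 transcript each, and Prdx4-201 held 98.7% of the Prdx4 TPM. Processed pseudogenes at least 95% identical were listed for Prdx1 (2 copies), Prdx2 (1) and Txn1 (1), with at most 0.0409% of their gene's TPM. Prdx5 shares 360 bases with Trmt112, on the opposite strand of the same chromosome, and Trmt112 had a mean scaled TPM of 16.6.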

How the data were processed

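Left ventricular mRNA of 25 mice was analysed, each library being 1 mouse. The authors deposited TPM per transcript and library; per the labels kallisto 0.43.1, sleuth 0.30.0 and GRCm38 were used, while the paper describes another aligner for its own tests. The transcript length in the table, another value of the authors, was not used. Columns were matched to mice by library name, because the positions given in the sample descriptions point to other columns; groups came from the sample labels. Of 119215 transcripts, 116772 matched GENCODE M21 and 2443 did not. TPM was summed per gene, divided by median-ratio factors (11878 genes) and analysed as log2(value + 0.5), a scale that understates differences of low genes. The 11983 genes whose mean reached 1 scaled TPM were tested with limma 3.58.1 in R 4.3.3 (empirical Bayes with trend, Benjamini-Hochberg over all). The 20 mice without carnosine were fitted as 4 groups, carnosine on 10 WT HFHS mice, and carnosine against CNTL on 25. Single values were compared by exact permutation (scipy 1.17.1), and sequence copies were found with blastn 2.17.0. The limma step was tested on simulated data. The genes, lists and tests were chosen with earlier results of these data known. Named were the 10 genes, listed genes called in any comparison, Txnip, Srxn1, Gsr, Nnt, Gpx4, pseudogene copies, and the 3 genes most like each called member. Alternatives concerned scaling, pseudocount, filter, transcripts, the fit, and mice left out; the listed genes without 6 mice were an addition made after seeing the data.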

Additional observations from a re-analysis of the deposited data

Results flagged for a closer look

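Of 50 sets of 5 mice (10 genes in 5 groups), 2 held a mouse that stood apart from the other 4 by Dixon's ratio; chance flags about 1 in 20 such sets. Prdx3 was 210.9 scaled TPM in GPx4+/- HFHS 1, while the other 4 mice of that group lay between 214.9 and 216.5. Txn1 was 47.53 in WT CNTL 1, above the other 4 mice at 45.0 to 45.4. Among the other named genes 3 of 50 sets were flagged. Nnt was 199.9 in WT HFHS + Carnosine 4 against 166 to 172 in the others, Msra was 37.14 in WT HFHS 4 against 40.2 to 41.4, and Nqo1 was 51.57 in WT CNTL 3 against 41.3 to 43.2. WT HFHS 4 and WT CNTL 3 are among the mice with markers of other tissue.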

How the results depend on the processing

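The 14 other ways of processing and the omission of each mouse were run. Of 10 genes, 1 was called for diet in GPx4+/- mice, and 0 with mitochondrially encoded transcripts removed and the remaining total as the scale in place of median ratios, no filter, array weights, protein-coding transcripts only, a block for the replicate number, or without the 6 mice with markers of other tissue; single omissions gave 0 to 1. Over both genotypes 1 was called, 2 with that change of transcripts and scale together (Prdx2 as well as Prdx4), and 1 to 2 with single omissions. The count was 0 in the other 7 comparisons under every alternative, and among the 10 genes the direction of no called difference changed. Each cause was not tested. Replicate numbers did not pair the mice (correlations of deviations from -0.34 to 0.23), so the block is a check only; with it 306 genes were called for diet in GPx4+/- mice and 68 in WT mice. Over all genes the calls ran from 38 (TPM as deposited) to 407 (array weights) for diet in WT mice (142 as reported), from 124 to 425 in GPx4+/- mice (400), from 28 to 404 for HFHS with carnosine against CNTL (141), from 3 to 7 for genotype on HFHS (6) and from 4 to 10 over both diets (7). Calls in the higher direction were 261 of 400 for diet in GPx4+/- mice, but 37 of 425 with TPM as deposited, where the median of all genes was -0.10, and 109 of 222 with mitochondrially encoded transcripts and median ratios both dropped. Over both genotypes they were 560 of 997, and 142 of 713 and 283 of 814 in these 2 settings. In WT mice they were 79 of 142, and 43 of 104 in the second setting. For HFHS with carnosine they were 81 of 141, and 23 of 75 and 43 of 149. TPM holds no depth, so what low counts limit cannot be given.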
